A study of Ovis aries with 16 samples.

Results

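LOC114118460, LOC105607806 and LOC114112974 are 3 rows of a table of 2973 long non-coding RNAs (lncRNAs), among 4920 features in 4 tables. They were picked by name because their small RNA reads were lower in muscle of female sheep exposed to testosterone before birth (prenatal T) than in muscle of control ewes. The muscle values of both treatments chose them, so the muscle difference is given as a description, with no p-value for the rows, and the liver values of the same ewes are tested. The samples were muscle and liver from 4 prenatal T ewes (48, 185, 233 and 255) and 4 control ewes (98, 131, 132 and 201), which makes 16 libraries in 4 groups of 4, with both tissues of each ewe. Age at sampling, breed and the dose and time of testosterone are not in the labels used here, and what the groups share is that all ewes were female. Total RNA was extracted with Trizol and made into small RNA libraries with a NEBNext kit.

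Long non-coding RNAs are transcripts that carry no long reading frame, and many act in the nucleus on the genes around them. A small RNA library does not sample such transcripts along their length: it captures short RNAs, so a read counted for a lncRNA comes from a short fragment of it or from a small RNA encoded inside its interval, such as a piece of a transfer RNA. Sheep exposed to excess testosterone in the womb are used as a model of polycystic ovary syndrome and of reduced insulin sensitivity, for which muscle and liver are main target tissues. The values below are therefore levels of short reads assigned to a lncRNA row, in normalised reads (the reads of a row divided by a size factor of the library), and not levels of the full transcript.

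Of the 3 rows, only LOC105607806 is listed in the RefSeq annotation used (assembly ARS-UI_Ramb_v3.0), where 1372 of the 2973 lncRNA rows were found by symbol. The build behind the deposited tables is not given in the sources used here, so the annotation serves only for neighbours. There LOC105607806 overlaps HES7, which in mouse encodes a Notch-driven repressor that times the segmentation of the embryo, and it lies next to PER1, which encodes a repressor of the circadian clock. On its other side is ALOXE3, which encodes a lipoxygenase of the skin barrier. One transfer RNA gene, TRNAG-GCC for glycine, and 1 small nuclear RNA (snRNA) gene, LOC114117043, lie inside its interval. Within 100 kb there are 18 transfer RNA genes and 12 protein-coding genes. The tables do not say which strand was counted, so reads of LOC105607806 cannot be told apart here from reads of the genes that overlap it. LOC114118460 and LOC114112974 have no entry, and no function is assigned to them here.

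Few reads limit the precision of LOC114118460 and LOC105607806 in many libraries. Every value above 0 in the lncRNA table was a whole multiple of the value of a single read in its column. That value ran from 0.444 normalised reads in muscle of prenatal T ewe 48 to 2.44 in muscle of prenatal T ewe 255, and from 0.633 to 1.82 in liver. Recovered lncRNA reads ran from 122749 to 926854 per muscle library and from 38399 to 124174 per liver library. Over all 16 libraries LOC114118460 held 424 reads, LOC105607806 355 and LOC114112974 4933. The tissue labels matched the markers in the data: reads of MIR133, a miRNA of skeletal muscle, had 175878 to 275804 RPM (reads scaled to the same total over the 4 classes) in muscle libraries and 237 to 1815 in livers. Reads of the hepatocyte miRNAs MIR148A and MIR194 had 907 to 1795 RPM in muscle and 82210 to 124298 in liver. The MIR133 value of 175878 was that of prenatal T ewe 255, and the other 7 muscles had 255133 or more. The library names in the labels carry a running number, which in muscle follows treatment: 61, 62, 63 and, for ewe 255, a number above 100 for prenatal T, and 57 to 60 for control. In muscle, treatment and the order of numbering cannot be told apart. The labels name different animals, which were treated as the replicates.

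LOC114118460 had values in muscle that separated by treatment. It had 14.2, 9.18, 9.27 and 12.2 normalised reads in muscle of prenatal T ewes 48, 185, 233 and 255, against 45.4, 75.6, 43.7 and 40.6 in muscle of control ewes 98, 131, 132 and 201. The highest prenatal T library, that of ewe 48, lay well below the lowest control, and the groups did not overlap. The means were 11.2 ± 2.45 in prenatal T and 51.3 ± 16.3 in control muscle (SD, n = 4 each), a ratio of 0.219. The counting error of single prenatal T libraries was between 2.51 and 5.47 normalised reads. The SD of 2.45 was smaller than that of any one of them, so it does not measure the spread between ewes. These values rest on 5 to 32 reads per prenatal T library and 35 to 86 reads per control library. The 95% Poisson interval of the deepest prenatal T value, 32 reads in ewe 48, ran from 9.73 to 20.1 normalised reads, and that of the lowest control, 35 reads in ewe 201, from 28.3 to 56.5, so these intervals did not meet. For ewe 255 the interval of its 5 reads reached 28.5, just past the lower limit of 28.3 for ewe 201, so those intervals did meet. These intervals hold only the error of counting, because copies of a molecule made by PCR are not told apart in the reads.

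LOC105607806 was the row nearest to the limit of counting. It had 5.78, 5.10, 5.15 and 4.89 normalised reads in muscle of prenatal T ewes 48, 185, 233 and 255, which stand for 13, 5, 5 and 2 reads. In muscle of control ewes 98, 131, 132 and 201 it had 21.8, 23.7, 73.8 and 11.6 normalised reads, from 25, 27, 86 and 10 reads. All prenatal T libraries were below every control, and 1 control, ewe 132, stood far above the other 3. The mean was 5.23 ± 0.383 in muscle of prenatal T ewes, against 32.7 ± 27.9 in muscle of controls (n = 4 each). Control was 6.26 times prenatal T, or 3.64 times when muscle of ewe 132 was left out. The SD of 0.383 among prenatal T libraries was smaller than the counting error of any one of them, which was between 1.6 and 3.46 normalised reads, so it does not measure the spread between ewes. In muscle of ewe 255 the level was under the floor of 3 reads, worth 7.33 normalised reads there, and the 95% Poisson interval of its 2 reads ran from 0.592 to 17.7. The intervals of ewes 185 and 233 reached 11.9 and 12.02, so in these 3 of the 4 prenatal T libraries the interval holds the lowest control value of 11.6, and that of ewe 48 reached 9.88. The interval of that control, 10 reads in ewe 201, ran from 5.57 to 21.3, so it met those of all 4 prenatal T libraries.

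LOC114112974 was by far the best counted of the 3, with 53 to 388 reads per prenatal T muscle library and 195 to 1236 per control muscle library. It had 172, 152, 149 and 130 normalised reads in muscle of prenatal T ewes 48, 185, 233 and 255, against 429, 276, 1060 and 226 in muscle of control ewes 98, 131, 132 and 201. The prenatal T libraries were close together and all lay below the lowest control, ewe 201, while the controls spread over 4.68 times. The means were 151 ± 17.6 in prenatal T and 498 ± 385 in control muscle (n = 4 each). Control was 3.30 times prenatal T, and 2.06 times without muscle of ewe 132.

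**Figure D1:**
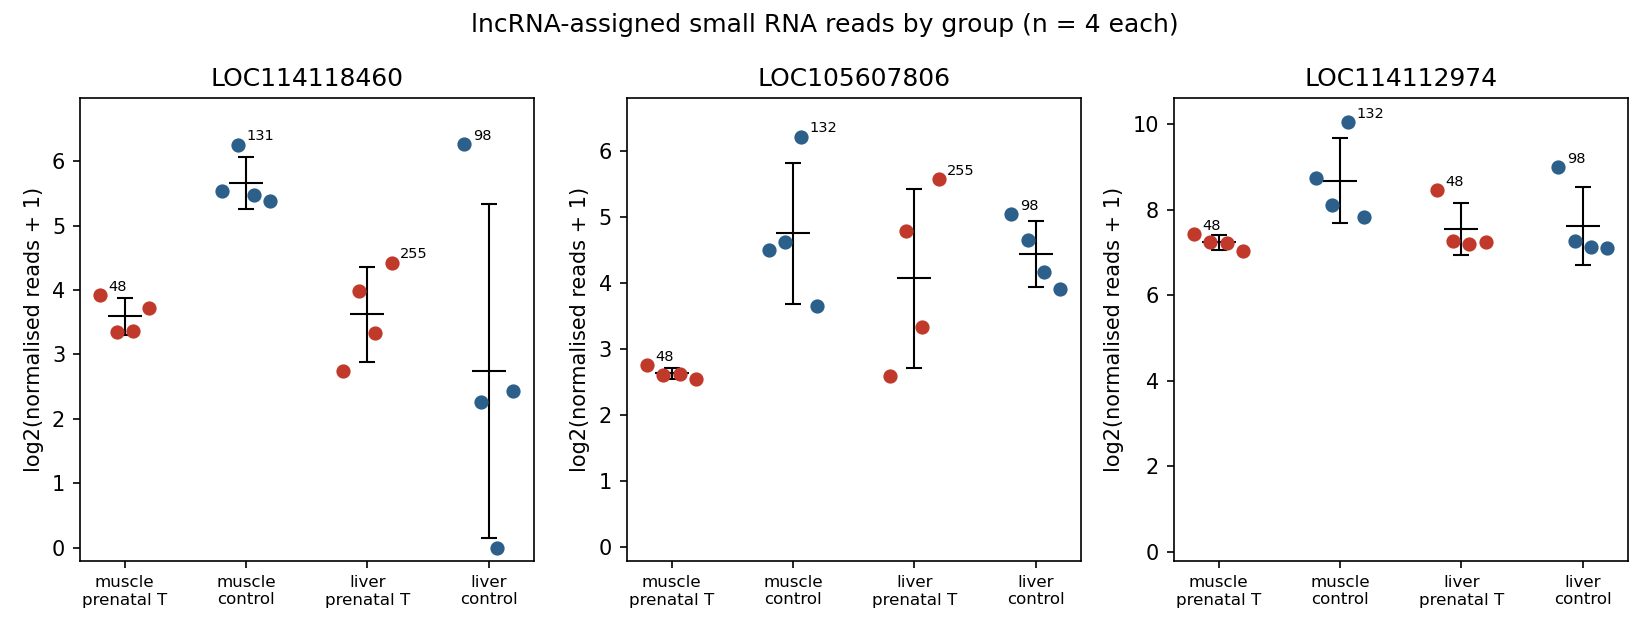
Normalised reads of the 3 lncRNA rows on a log2(value + 1) axis in muscle and liver of prenatal T (red) and control (blue) ewes, 1 point per library, with bars at the mean ± SD of the log2 values (n = 4 each) and the ewe number at the highest library of each group. In muscle every prenatal T point lies below every control point (LOC114118460 averages 11.2 in prenatal T muscle, against 51.3 in control muscle), whereas in liver the groups overlap for all 3 rows.

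Set against all lncRNAs, the 3 rows stood at the low end of the muscle comparison that chose them. On the log2(value + 1) scale, which understates changes of low rows, the log2 fold change of prenatal T over control in muscle was -2.07 (SE 0.30) for LOC114118460, -2.12 (SE 0.48) for LOC105607806 and -1.45 (SE 0.42) for LOC114112974. They ranked 4th, 3rd and 5th from the lowest among the lncRNAs with a mean of at least 5 normalised reads over the 8 muscle libraries, whose median was -0.07. The pair with lower values was LOC114112617, with a log2 fold change of -2.16, and LOC114113790, with -2.12. In 3 of 3 rows every prenatal T library lay below every control, which was so for 4.39% of the lncRNAs tested (5 in number). Those 5 were the 3 rows themselves and the pair. With limma and an adjusted p under 0.05, 2 of 3 were called lower, LOC114118460 and LOC105607806. The share over the lncRNAs tested was 3.51% (4 in number, these 2 rows and the pair). That number was 1 without muscle of prenatal T ewe 48 or 233 or of control ewe 132, and 2 without control ewe 131 or 201. It was also 1 with no variance trend, and 0 with all 16 libraries in 1 fit. With DESeq2 on recovered reads 3 of 3 were called lower, against 4.39%. Since these rows were picked for this contrast, nothing is read from these counts.

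**Figure D2:**
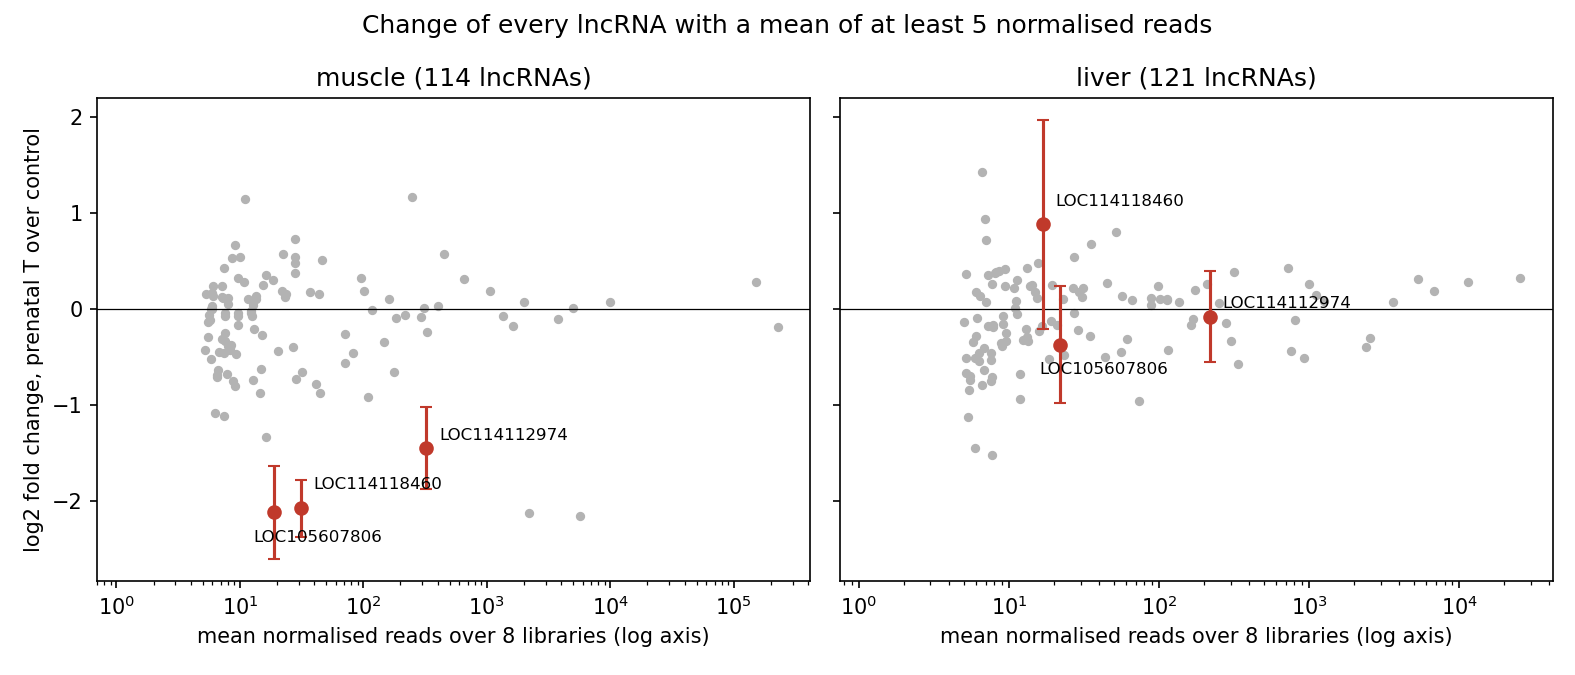
Log2 fold change of prenatal T over control against the mean normalised reads (log axis) for the lncRNAs tested in muscle and the 121 tested in liver, with the 3 rows in red and their SE as bars. In muscle the rows lie at -2.07, -2.12 and -1.45, and in liver at 0.88, -0.37 and -0.08, where all 3 bars are long beside the value.

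Leaving out single libraries moved LOC114118460 least. Its muscle log2 fold change stayed between -2.19 and -1.88 over the 8 fits that each left out 1 library. That of LOC105607806 ran from -2.48 without control ewe 201 to -1.63 without control ewe 132, and that of LOC114112974 from -1.73 without ewe 201 to -0.99 without ewe 132. Without muscle of ewe 255, the shallowest library and the only one in muscle numbered above 100, the values were -2.12, -2.09 and -1.38 for LOC114118460, LOC105607806 and LOC114112974.

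Liver of the same ewes, which took no part in the choice of the rows, gave no difference past the threshold for any of them. All 3 passed the filter there, and with limma 0 of 3 were called, against 0% of 121 lncRNAs in either direction. At an unadjusted p under 0.05 limma found 0. Neither edgeR nor DESeq2 called any lncRNA in liver, and each had 2 below that unadjusted level. The groups overlapped for all 3 rows. The intervals given next show that the liver data leave a wide range of differences possible.

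LOC114118460 had 5.70, 14.9, 9.08 and 20.5 normalised reads in liver of prenatal T ewes 48, 185, 233 and 255, and 76.1, 3.82, 0 and 4.4 in liver of control ewes 98, 131, 132 and 201. A single control, ewe 98 with 83 reads, was as high as control muscle, and the other 3 controls, with 0 to 5 reads, were all below the lowest prenatal T liver. The count of 0 in ewe 132 is under the floor of 3 reads, worth 3.0 normalised reads there, and its 95% Poisson interval reached 3.69. The means were 12.5 ± 6.52 in prenatal T and 21.1 ± 36.7 in control liver (n = 4 each), and a two-sided exact permutation test of the means gave p = 1. Without liver of ewe 98 the difference of the means was 9.80 (two-sided exact permutation test p = 0.0571, the smallest that 4 against 3 allows). The log2 fold change was 0.88 (SE 1.09, 95% interval from -1.54 to 3.30, limma adjusted p = 0.890), of the opposite sign to the difference of the means. Without liver of ewe 98 it was 2.06 (SE 0.69, limma adjusted p = 0.660), and without liver of ewe 132 it was -0.03. MIR133 reads in liver of ewe 98 were 0.693% of the muscle median in RPM, and in the other livers between 0.0902% and 0.198%. On the scale common to both tissues (described with the tissue comparison), LOC114118460 had 63.3 jointly scaled reads in liver of ewe 98 and 43.8 to 78.9 in the control muscles.

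LOC105607806 had 5.06, 26.7, 9.08 and 46.8 normalised reads in liver of prenatal T ewes 48, 185, 233 and 255, and 32.1, 24.2, 17.0 and 14.1 in liver of control ewes 98, 131, 132 and 201. The prenatal T livers were spread over 9.25 times and lay on both sides of the controls. The means were 21.9 ± 19.1 in prenatal T and 21.8 ± 8.04 in control liver (n = 4 each; two-sided exact permutation test p = 1). Its log2 fold change was -0.37 (SE 0.61, 95% interval from -1.73 to 0.99, limma adjusted p = 0.890), and without liver of ewe 48 it was 0.12. In liver of the prenatal T ewes 185 and 255 the row held 34 and 48 reads, against 5 and 2 in muscle of the same ewes. On the scale common to both tissues, liver had 26.2 and 44.9 jointly scaled reads and muscle 5.89 and 5.02.

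LOC114112974 had 352, 154, 145 and 152 normalised reads in liver of prenatal T ewes 48, 185, 233 and 255, and 510, 154, 139 and 137 in liver of control ewes 98, 131, 132 and 201. One liver of each treatment, ewe 48 and ewe 98, was high, and the other 6 lay within 137 to 154. The means were 201 ± 101 in prenatal T and 235 ± 183 in control liver (n = 4 each; two-sided exact permutation test p = 0.914). The log2 fold change was -0.08 (SE 0.47, 95% interval from -1.14 to 0.97, limma adjusted p = 0.903), and without liver of ewe 98 it was 0.37. The smallest p that this permutation test of 4 against 4 allows is 0.0286, and adjusted over the 3 rows all p were 1.

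The high livers of LOC114112974 were those with low library numbers. Liver libraries of ewes 48 and 98 are numbered 53 and 49, and the other 6 livers carry numbers above 100. The livers numbered under 100 averaged 431 normalised reads and the 6 numbered above 100 averaged 147, a ratio of 2.93. Of 121 lncRNAs tested in liver, 12 (9.92%) had both of these livers above all 6 others and 12 had both below, and the gap was widest for LOC114112974. With the library set as a term in the liver fit, the log2 fold change of prenatal T over control was -0.08, with an SE of 0.20. Each set held as many prenatal T as control livers, so this term could change the SE but not the fold change. Within the 6 livers numbered above 100 it was 0.07 (SE 0.17). In muscle 7 of the 8 libraries are numbered under 100, so the set gives no split by treatment there: 3 prenatal T muscles in that set had 149 to 172 and the 4 controls 226 to 1060 normalised reads, and prenatal T ewe 255, numbered above 100, had 130. What the numbers stand for is not given in the labels, and their part in the muscle difference was not tested.

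**Figure D3:**
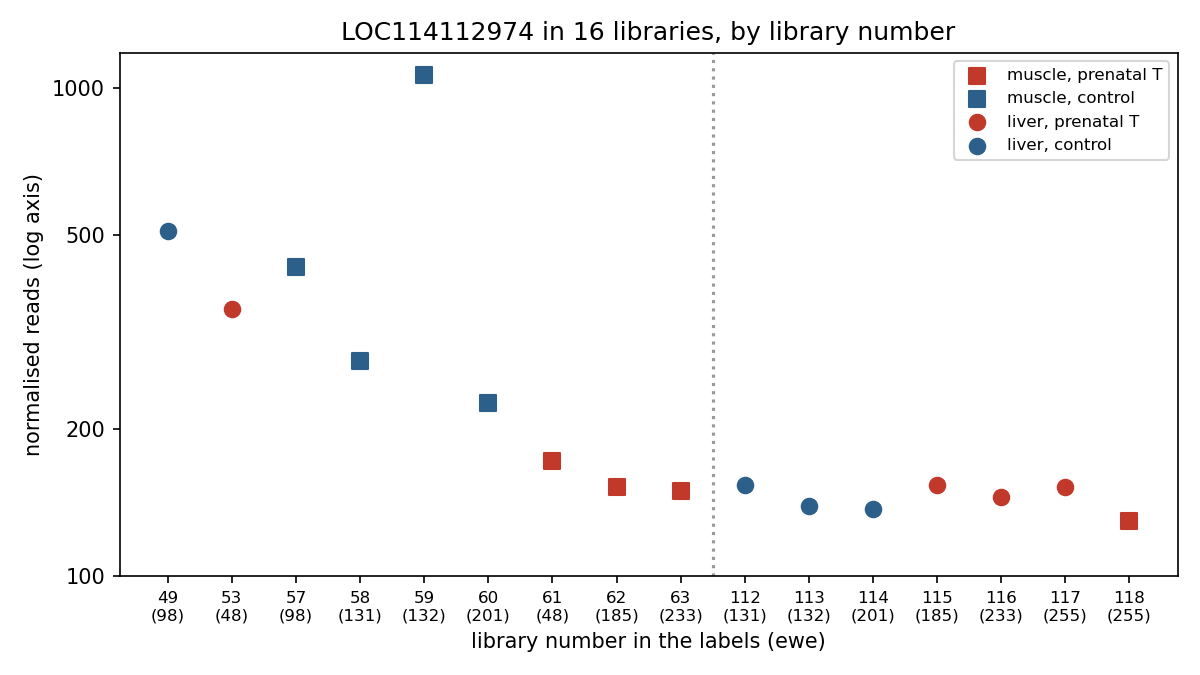
Normalised reads of LOC114112974 (log axis) in the 16 libraries in order of the library number in the labels, with the ewe in brackets. Squares are muscle, circles liver, red prenatal T and blue control, with a dotted line between numbers under and above 100. Muscle and liver values may have been scaled separately. Control muscles and both livers left of the line lie between 226 and 1060, and all other libraries between 130 and 172.

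For LOC114118460 and LOC105607806 the library numbers did not order the livers in this way. LOC114118460 had 5.70 in prenatal T ewe 48 and 76.1 normalised reads in control ewe 98, the livers numbered under 100, and 0 to 20.5 in the other 6. Among those 6, the 3 prenatal T livers had 9.08 to 20.5 and the 3 controls 0 to 4.4, with a log2 fold change of 2.35 (SE 0.71, limma adjusted p = 0.306). LOC105607806 had 5.06 in ewe 48 and 32.1 in ewe 98, and 9.08 to 46.8 in the others.

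The effects in the 2 tissues stood side by side as follows, with no test of their difference, since the muscle effect chose the rows. The log2 fold change was -2.07 in muscle and 0.88 in liver for LOC114118460, -2.12 and -0.37 for LOC105607806, and -1.45 and -0.08 for LOC114112974. For LOC114112617 it was -2.16 in muscle and 0.26 in liver, and for LOC114113790 -2.12 and 0.80.

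Levels in muscle and liver were compared on one scale, with recovered reads divided by median-of-ratios factors over all 16 libraries. The deposited values may have been scaled within a tissue. The muscle values in this comparison are those that chose the rows, so it is a description of them and no independent test. Averaged over both treatments, the log2 difference of muscle over liver was 1.61 (SE 0.58) for LOC114118460, -0.40 (SE 0.41, 95% interval from -1.26 to 0.46) for LOC105607806 and 0.55 (SE 0.33, 95% interval from -0.14 to 1.25) for LOC114112974. For LOC114118460 the mean within ewes was 0.13 in prenatal T ewes and 3.08 in control ewes. With limma and an adjusted p under 0.05, 1 of 3 was called higher in muscle, LOC114118460, where 33.9% of the lncRNAs tested were called higher and 37.3% lower (71.2% in either direction). The values depended on the scale. With each library divided by its total over the 4 classes the log2 differences were 0.70 for LOC114118460, -1.35 for LOC105607806 and -0.48 for LOC114112974, and LOC105607806 alone was called, as lower. With each divided by its lncRNA total they were -0.77, -2.89 and -2.18, and LOC105607806 and LOC114112974 were called lower. These scales moved the median of all lncRNAs to -1.09 and -2.58, against -0.01 on the scale used. Relative to that median LOC114118460 stood at 1.62 on the scale used and at 1.79 and 1.81 on the others, LOC105607806 at -0.39, -0.26 and -0.31, and LOC114112974 at 0.56, 0.62 and 0.39. With edgeR on recovered reads the value of LOC114118460 was 0.69 and was not called. Without liver of ewe 98 it was 2.16, and LOC114112974 was called higher, at 0.75.

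On that scale LOC114118460 averaged 12.3 ± 2.42 jointly scaled reads in prenatal T muscle, 54.5 ± 16.4 in control muscle, 12.2 ± 6.25 in prenatal T liver and 17.9 ± 30.4 in control liver (SD, n = 4 each). Control muscle was thus the highest group by mean, and the other 3 overlapped with each other. Control liver overlapped with the prenatal T groups through the high value of ewe 98 alone. Livers of control ewes 131, 132 and 201, with 0 to 4.32, lay below every prenatal T library, the lowest of which had 5.52. Control muscle overlapped with control liver through ewe 98 alone. LOC105607806 averaged 5.75 ± 0.543 in prenatal T muscle, 34.6 ± 29.1 in control muscle, 21.2 ± 18.3 in prenatal T liver and 20.2 ± 6.15 in control liver. Control muscle was again the highest and prenatal T muscle the lowest; the 3 highest groups overlapped, and prenatal T muscle overlapped with prenatal T liver through ewe 48. LOC114112974 averaged 166 ± 23.8 in prenatal T muscle, 528 ± 402 in control muscle, 195 ± 98.0 in prenatal T liver and 211 ± 142 in control liver. Its 3 lower groups overlapped, and control muscle, the highest, overlapped with prenatal T liver through ewe 48 and with control liver through ewe 98.

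Within ewes, LOC114118460 was higher in muscle than in liver in 2 of 4 prenatal T ewes and in 3 of 4 control ewes, the exception among controls being ewe 98, with 49.2 jointly scaled reads in muscle and 63.3 in liver. LOC105607806 was higher in muscle in 1 of 4 prenatal T ewes and 2 of 4 control ewes. Prenatal T ewe 255 had 5.02 in muscle and 44.9 in liver, and control ewe 132 had 77.5 in muscle and 16.2 in liver. LOC114112974 was higher in muscle in 2 of 4 prenatal T ewes and 4 of 4 control ewes, with a ratio of 8.41 in control ewe 132 and between 0.553 and 1.18 in the prenatal T ewes. As the rows were picked for low values in prenatal T muscle, this contrast between treatments is a description.

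**Figure D4:**
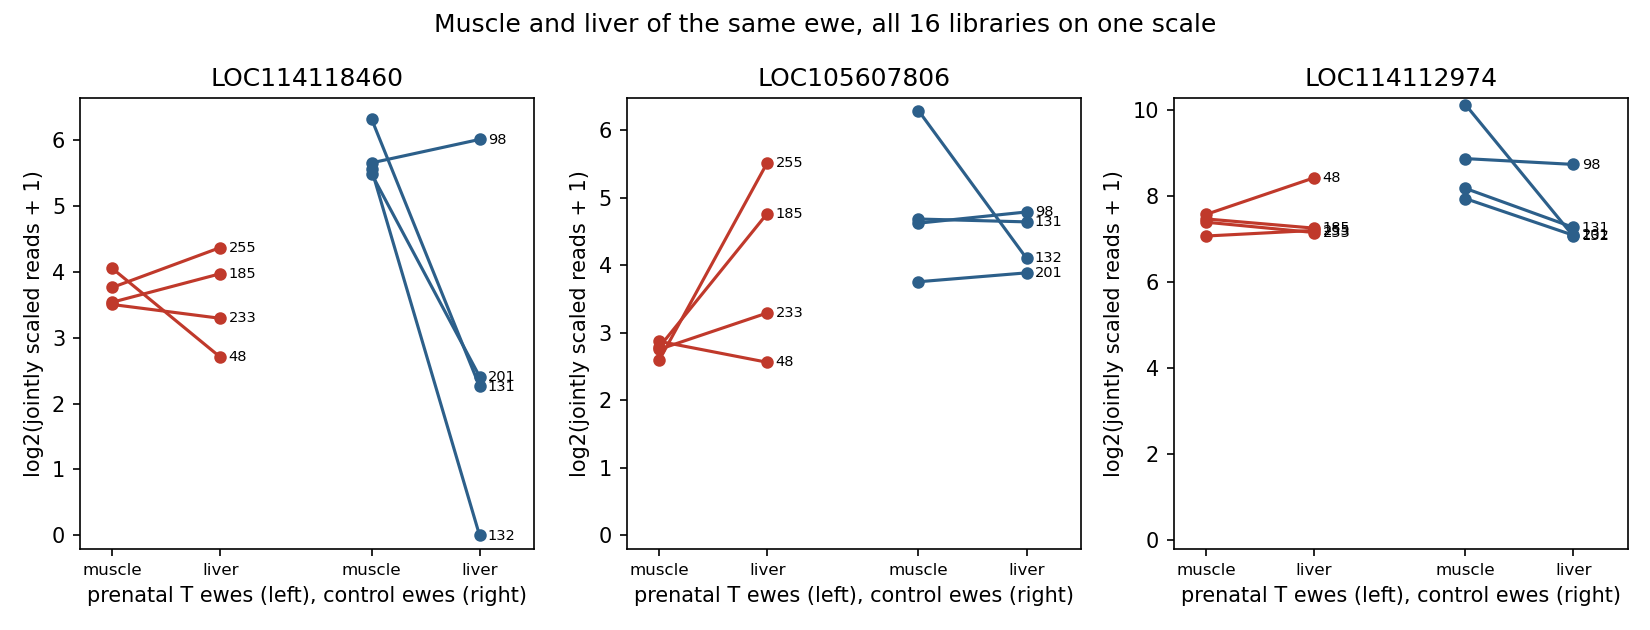
Muscle and liver of each ewe joined by a line, on a log2(jointly scaled reads + 1) axis, with prenatal T ewes in red on the left and control ewes in blue on the right. LOC114118460 is far lower in liver in control ewes 131, 132 and 201 and not in ewe 98 (49.2 and 63.3 jointly scaled reads), and LOC105607806 is higher in liver in prenatal T ewes 185, 233 and 255.

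How the rows varied together among muscle libraries rested largely on control ewe 132. The comparison used the deviation of each library from its own group mean in log2(value + 1), over the 8 muscle libraries and 315 other features of the 4 tables with a mean of at least 5 normalised reads. LOC105607806 and LOC114112974 had a Pearson r of 0.943, which was 0.667 without ewe 132. LOC114118460 had an r of 0.03 with LOC105607806, which was 0.63 without ewe 132, and of -0.21 with LOC114112974, which was 0.02 without ewe 132. With LOC114112617 the values were -0.48 for LOC114118460, 0.41 for LOC105607806 and 0.53 for LOC114112974, and with LOC114113790 -0.40, 0.32 and 0.40. Without ewe 132 the values of LOC105607806 turned to -0.45 with LOC114112617 and -0.57 with LOC114113790. These r are descriptions: the points share 8 libraries, and the rows of 1 table share a size factor.

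The features most like LOC105607806 were the snRNAs LOC114111391 with an r of 0.965 (0.954 without ewe 132) and LOC114111409 with 0.950 (0.658 without ewe 132), followed by LOC114112974. The same snRNAs were most like LOC114112974, LOC114111409 with an r of 0.965 (0.780 without ewe 132) and LOC114111391 with 0.950 (0.766), followed by LOC105607806. Small nuclear RNAs are parts of the splicing machinery, and near-identical copies can share reads, so the values of these 2 are uncertain. Both had 30, 80, 15 and 8 reads in muscle of ewes 131, 132, 201 and 255. In muscle of ewes 98, 48, 185 and 233 LOC114111391 had 47, 52, 15 and 30 reads and LOC114111409 had 52, 49, 16 and 32. They are therefore not taken as 2 separate matches, and whether they share reads was not tested. In prenatal T muscle LOC114111391 ran only from 25.2 to 26.5 normalised reads, so its r rest mainly on the control muscles. LOC114111391 had 48.9 normalised reads in muscle of control ewe 132 and 24.6 to 27.4 in the other 7 muscles. Ewe 132 thus stood highest in LOC105607806 (73.8), LOC114112974 (1060) and this snRNA alike. Between treatments the snRNA differed less than these 2 rows did, with a mean of 25.7 normalised reads in muscle of prenatal T ewes and 32.0 in muscle of controls. The features most like LOC114118460 were other ones: the small nucleolar RNA LOC114111244 with an r of 0.957, the lncRNA LOC114115115 with 0.857 and the miRNA MIRLET7I with 0.830. For each row the named features were picked as the highest r of 315 over 8 libraries, so their r are high in part through that choice. LOC114111244 averaged 31.7 in muscle of prenatal T ewes, against 30.7 in muscle of controls, and its highest muscle, ewe 131 with 42.2 normalised reads, was also the highest muscle of LOC114118460.

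**Figure D5:**
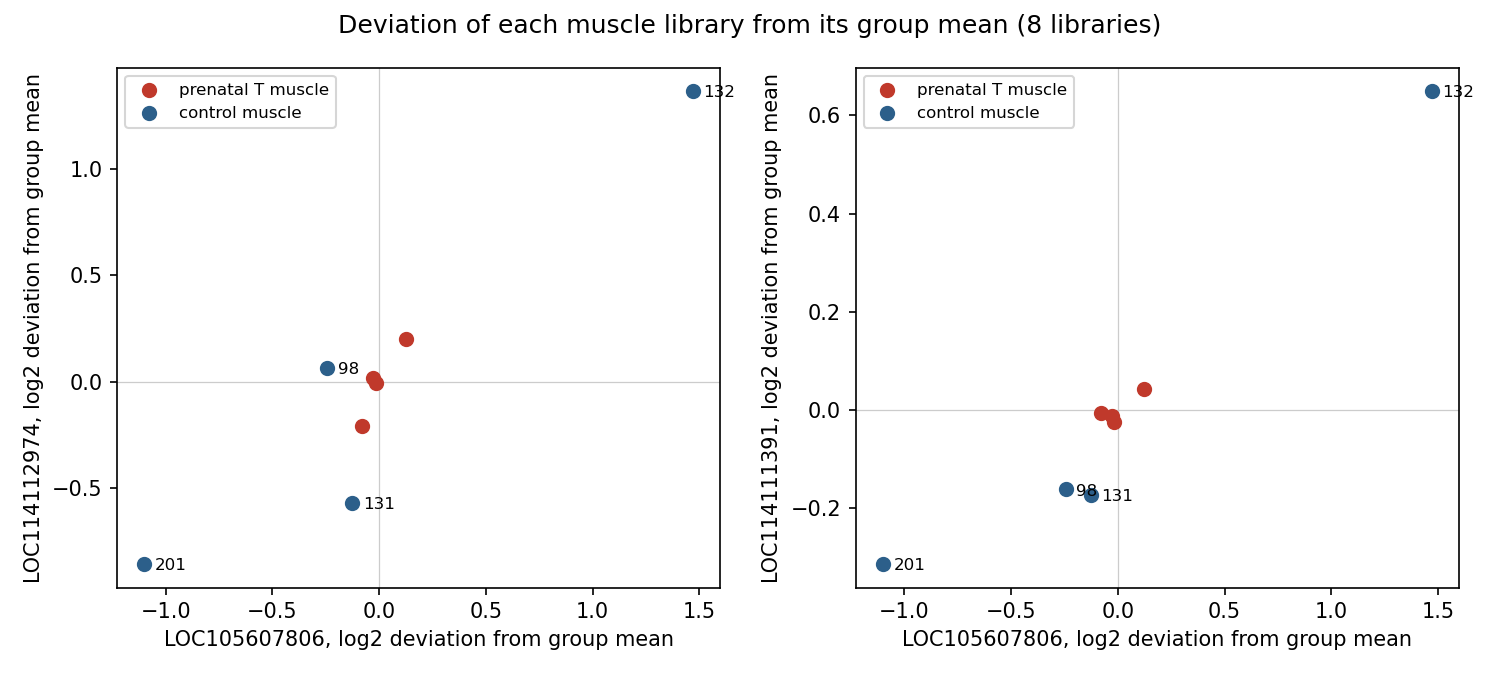
Deviation of each of the 8 muscle libraries from its group mean, in log2(normalised reads + 1), for LOC114112974 (left panel) and the snRNA LOC114111391 (right panel) against LOC105607806, with prenatal T muscles in red and control muscles in blue with their ewe numbers. Ewe 132 lies at the upper right and ewe 201 at the lower left of both panels, with r of 0.943 and 0.965 over the 8 libraries.

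Rows with a like position in the annotation gave no further call. Of 36 lncRNA rows with a transfer RNA gene inside their annotated interval, 8 passed the filter in muscle. Of these 8, LOC105607806 itself was called lower and 0 were called higher, where 3.51% of all lncRNAs tested were called lower. As LOC105607806 was picked for this contrast, nothing is read from its call. Of the 8, 4 had log2 fold changes above 0 and 4 below, and their median was 0.03 beside -0.07 over all lncRNAs tested. In liver the same number passed, 0 were called, and the median was -0.16 beside -0.08. Of 8 lncRNA rows with a miRNA gene inside, 5 passed in muscle and 4 in liver, 0 were called in either, and the medians were 0.01 and 0.19. Within 100 kb of LOC105607806, 2 genes are in the tables. The small nucleolar RNA LOC114117047 averaged 13.0 ± 5.89 normalised reads in muscle of prenatal T ewes, against 10.1 ± 5.77 in muscle of controls (n = 4 each). In liver of prenatal T ewes it averaged 21.7 ± 3.50, against 27.4 ± 13.6 in liver of controls. The snRNA inside LOC105607806 had 1 read in all 16 libraries.

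Marker miRNAs of other cells overlapped between treatments in muscle. Of 6 skeletal muscle markers only MIR133 is in the data, and its RPM ran from 175878 to 275804 in prenatal T and from 255133 to 268410 in control muscle. Of 6 endothelial and mesenchymal markers 3 are in the data (MIR10B, MIR143 and MIR199A), with a sum of 9234 to 13836 in prenatal T and 13051 to 20598 in control muscle, an overlap at the edge only. The leukocyte marker MIR150, 1 of 4, ran from 923 to 2514 in prenatal T and from 1419 to 1910 in control muscle. Of 4 miRNAs listed for erythroid cells only MIR16B is in the data, and on its own it is no measure of these cells. It ran from 993 to 2243 in prenatal T and from 1084 to 1468 in control muscle. The sum of 2 of 4 hepatocyte markers was 907 to 1551 in prenatal T muscle, against 1072 to 1795 in control muscle. That of 3 of 5 epithelial markers was 4.3 to 12.5 in prenatal T muscle, against 7.34 to 18.2 in control muscle. The part of these cells in the muscle difference was not tested, and in tissue RNA fewer cells of a type and less RNA per cell cannot be told apart.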

How the data were processed

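Small RNA libraries of muscle and liver from 4 prenatal T and 4 control ewes were analysed from 4 deposited tables (lncRNA, miRNA, snoRNA and snRNA). Tools listed in the submitters' processing notes are featureCounts 1.6.1, STAR 2.6.0c and cutadapt 3.2, with no roles or settings, and the counted strand and the genome build are not stated there. The authors deposited a signal in normalised units: reads over a size factor, which differed by library and table and may have been set within each tissue. Of 10585 lncRNA values above 0, 100% were whole multiples of 1 read within 0.001 reads, which gave the recovered reads.

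Prenatal T and control were compared within a tissue by limma 3.58.1 in R 4.3.3 on log2(value + 1) with a variance trend, for lncRNAs with a mean of at least 5, with Benjamini-Hochberg adjustment over the lncRNA table and a threshold of 0.05. Muscle and liver were compared by the same test on jointly scaled reads. edgeR 4.0.16 (quasi-likelihood) and DESeq2 1.42.0 were alternatives. Liver means were also compared by exact permutation. The fits were checked on simulated reads. The rows, lists and the rule for named features (the 3 rows, the 3 features most like each in muscle, and LOC114112617 and LOC114113790) were chosen with earlier results of these data known. Muscle and liver with the same number come from the same ewe, per the labels; the correlation of their deviations over lncRNAs ran from -0.190 to 0.495 over the 8 ewes. Replicate libraries differed by more than counting noise (chi-square per degree of freedom of 6.11 to 224 over 24 pairs).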

Additional observations from a re-analysis of the deposited data

Results flagged for a closer look

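Dixon's criterion was applied to each of the 12 groups of 4 libraries (3 rows, 2 tissues, 2 treatments). It compared the highest and lowest normalised read values with the rest. Chance passes it in about 1 in 20 groups if values are normally distributed. Read values need not be, and the rows share libraries, so the number of groups passed is not set against that rate. The criterion was passed in 4 groups. LOC114118460 stood out in liver of control ewe 98 with 76.1 normalised reads, where the other 3 controls had 0 to 4.4, and in muscle of control ewe 131 with 75.6, where the other controls had 40.6 to 45.4. LOC114112974 stood out in liver of prenatal T ewe 48 with 352, where the other prenatal T livers had 145 to 154, and in liver of control ewe 98 with 510, where the other controls had 137 to 154. Livers of ewes 48 and 98 are the 2 numbered under 100 in the labels.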

How the results depend on the processing

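The muscle log2 fold changes kept their sign under all 19 alternatives for each of the 3 rows. Every prenatal T muscle lay below every control, so fits on the deposited values, also those without 1 library, could not turn the sign. Some alternatives, such as the fit with no variance trend, cannot change the fold change at all. As the rows were picked for this contrast, nothing is read from the kept sign. The muscle count of 4 called lncRNAs was 1 with no variance trend and 0 with all 16 libraries in 1 fit, and between 1 and 4 over the fits without 1 library. The liver count was 0 throughout. Between muscle and liver, limma called 84 lncRNAs (40 higher, 44 lower). Over other sets of lncRNAs tested, it called 209 with no filter (106 higher, 103 lower), 144 with libraries scaled to lncRNA reads (7 higher, 137 lower) and 88 with scaling to the 4 classes (16 higher, 72 lower). In liver the direction was not stable. LOC114118460 reversed with edgeR (-0.52), DESeq2 (-0.73) and without 1 library (-0.034 to 2.06). LOC105607806 reversed with edgeR (0.15), DESeq2 (0.0039), the 6 livers numbered above 100 (0.32) and without 1 library (-0.87 to 0.12). LOC114112974 reversed with the livers numbered above 100 (0.069) and without 1 library (-0.39 to 0.37). The liver differences of the means, in normalised reads, ran from -15.6 to 9.80 for LOC114118460, from -8.24 to 5.68 for LOC105607806 and from -84.7 to 57.4 for LOC114112974 without 1 library, and that of LOC105607806 was -9.58 in RPM. Between muscle and liver LOC114118460 reversed to -0.77 with libraries scaled to lncRNA reads. LOC114112974 reversed to -2.18 on that scale (called lower) and to -0.48 with the 4 classes. The replicate block (the ewe as a block) gave 84 calls and, for LOC114118460, 1.61, and changed no call of the 3 rows. LOC105607806 was called lower at -1.35 with the 4 classes and at -2.89 with lncRNA reads. LOC114112974 was called higher at 0.75 without liver of ewe 98. The muscle values in these fits chose the rows, so these calls are a description and no independent test. DESeq2 gave no p for LOC114118460 between tissues. The cause of these moves was not tested. Low read counts limit LOC105607806 and LOC114118460 most, with 2 to 13 and 5 to 32 reads per prenatal T muscle.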

Other observations

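LOC114112974 had 137 to 154 normalised reads in the 6 livers numbered above 100. The coefficient of variation over the livers numbered above 100 was 5.06%, the 3rd lowest of 121 lncRNAs, whose median was 35.5%. The counting SD of these livers, 10.98 to 16.2 normalised reads on a mean of 147, is larger than that spread, so it does not measure the spread between ewes. The same 6 livers varied by 87.6% in LOC114118460 and by 58.1% in LOC105607806.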
